A study of Oryza sativa with 26 samples.

Results

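The 100 genes described here had their lowest level in the young (stage 2) lamina joint of the third leaf of rice and were higher in every other joint group. They were chosen from 17905 genes, each represented by its brightest probe set, by a score that subtracts the mean of the third joint at stage 2 from the lowest of the other 11 joint group means. The 100 genes with the highest score are the members, so their low level in the third joint at stage 2 and their higher level in the other joint groups are given as a description with no test. Of the members, 26 carry a descriptive gene name and 74 only a locus identifier.

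The samples are lamina joints of greenhouse-grown rice (Oryza sativa, japonica cultivar Zhonghua 11), with no mutant and no treatment in any group. Leaves are counted back from the last, so that the second joint is that of the leaf before the last, and the third joint that of the leaf before it. Harvest for stages 2, 4, 5 and 6 was on days 50, 55, 60 and 70 from sowing for the third joint, on days 55, 60, 65 and 75 for the second and on days 60, 65, 70 and 80 for the last, and a piece of the third leaf beside its joint at stage 4, on day 55, is the leaf control. Per the labels, stage 2 joints were young and pale, stage 4 joints mature and still upright, stage 5 joints were opening and stage 6 joints senescent. All tissue was cut by hand, and there are 26 arrays, 2 for each of 13 groups, which the labels call biological replicates without naming separate plants. The p-values therefore measure only the spread between these arrays, and their number limits the precision. The third joint at stage 2 is the only group of day 50, so leaf position at this stage and day of harvest cannot be told apart.

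The lamina joint is the hinge between leaf sheath and blade, and its unequal growth on the upper and lower side sets the leaf angle. Several families among the members are known in rice for stress and defence. Chitinases cleave the chitin of fungal walls, WRKY and NAC proteins are transcription factors, and TIFY proteins of the JAZ type repress jasmonate responses and are themselves switched on by jasmonate. Other members move potassium or ammonium across membranes, or inactivate the growth hormones auxin and cytokinin.

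The tissue label was checked on LG1, a regulator of ligule and joint formation, which had log2 levels of 8.89 and 9.07 in the third joint at stage 2, against 6.03 and 5.84 in leaf. LA, a gene of shoot gravitropism, had 11.76 and 11.43 in the third joint at stage 2, against 5.88 and 6.49 in leaf. Both genes separated the third joint at stage 2 from leaf without overlap. Array medians were 5.16 and 5.17 in the third joint at stage 2, against 5.07 to 5.15 on the other 24 arrays. The 9 spiked hybridisation control probe sets were all lowest in the third joint at stage 2, with an array mean of 10.05 and 10.09 there, against 10.41 to 11.05 on the other arrays. For the Gapdh control, the 3′ minus 5′ probe set difference was 1.47 on both arrays of the third joint at stage 2, against 1.78 to 3.78 elsewhere. The part of these controls in the members' low values was not tested. Across genes, which are not independent replicates, the arrays of a group correlated at r from 0.965 to 0.994, with 0.966 in the third joint at stage 2.

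Marker lists of tissues next to the joint, which cutting could carry along, were averaged per array. The 7 light-harvesting and photosystem genes of green leaf averaged 10.07 and 10.26 in the third joint at stage 2, against 10.07 to 10.81 on the arrays of the other young joints, and 1 of the 7 was lowest in the third joint at stage 2 among the 12 joint groups. Among all genes, 21.4% were lowest there, and the counts of lowest markers below are to be read beside this share. The 8 lipid-transfer and wax genes of the epidermis averaged 9.87 and 9.89 in the third joint at stage 2, against 10.15 to 10.38 in the other young joints, with 2 of 8 lowest there, 1 of them the member LTP. The 5 KNOX genes, taken as a meristem list, averaged 6.73 and 7.17 in the third joint at stage 2, against 7.73 to 7.97 in the other young joints, with 2 of 5 lowest there. The 13 floral MADS genes averaged 5.33 and 5.35 in the third joint at stage 2, against 5.18 to 5.38 in the other young joints, with 2 of 13 lowest there. The mean of the 5 KNOX genes was thus lower in the third joint at stage 2 than in the other young joints. Whether this mean measures meristem content was not tested. With the later stages included, the other joint arrays averaged 6.81 to 7.97, which overlaps the third joint at stage 2. The part of these markers in the members' values was not tested. The lower epidermal mean rests on LTP, which was chosen as low there: without it the other 7 genes averaged 10.03 and 10.08 in the third joint at stage 2, against 9.87 to 10.19 in the other young joints. In these bulk samples, fewer cells of a type and less RNA per cell cannot be told apart.

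The members' median log2 level was 5.07 in the third joint at stage 2. It was 9.33 in the second joint and 9.56 in the last joint at the same stage. At stages 4, 5 and 6 it was 10.30, 10.71 and 10.44 in the third joint, 10.53, 10.50 and 11.00 in the second joint, and 10.44, 10.53 and 10.78 in the last joint. Leaf had a median of 9.61. The median of all 17905 genes was 8.35 in the third joint at stage 2 and 8.26 to 8.57 in the other 12 groups. The low level in the third joint at stage 2 is fixed by the choice of members. The other young joints lay about 1 log2 unit under the later stages.

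**Figure D1:**
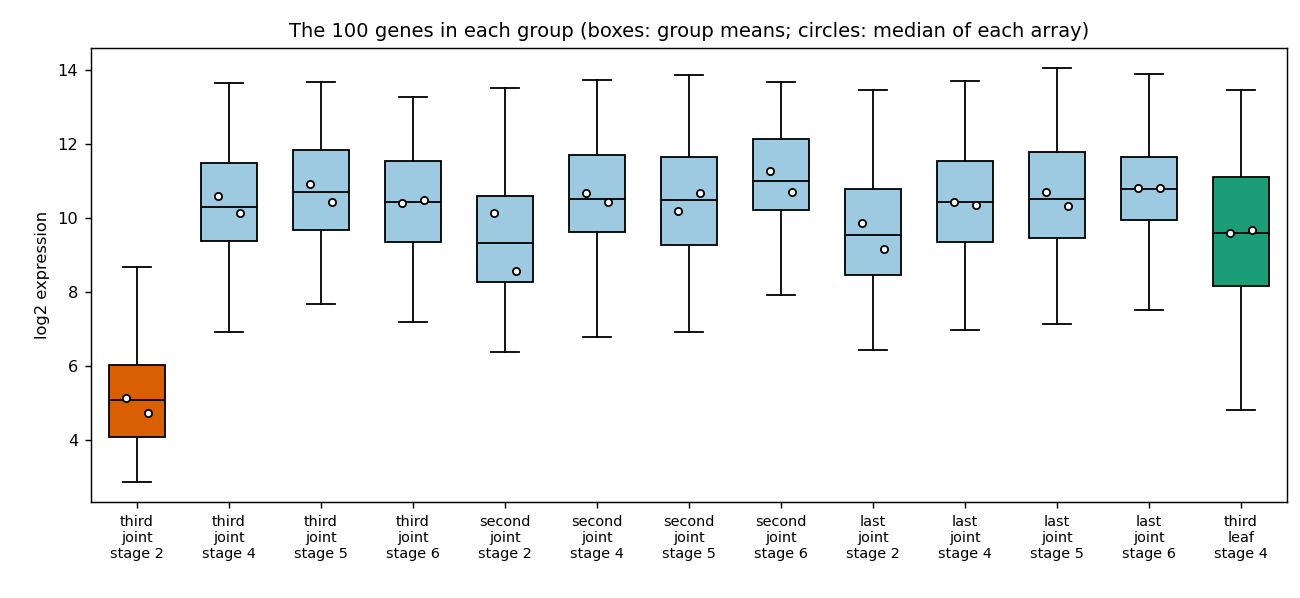
Log2 expression of the 100 genes in each of the 13 groups. Boxes span the quartiles of the group means over genes, with the median as a line and whiskers to the furthest gene within the usual multiple of the box height (genes beyond them are not drawn), and the 2 circles are the medians of the group's arrays. The third joint at stage 2 (orange) has a median of 5.07, the other 11 joint groups (blue) 9.33 to 11.00 and leaf (green) 9.61.

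In 99 of the 100 members, both arrays of the third joint at stage 2 lay below all 22 other joint arrays. Among all genes this held for 9.18%, and since the score picked the members on these arrays nothing is read from the count. The exception was LOC4336765, at 5.14 and 7.62 in the third joint at stage 2, against a lowest value of 6.16, a median of 12.12 and a highest value of 13.50 on the other joint arrays. Its 2 arrays of the third joint at stage 2 disagreed by more than 2 log2 units, and the higher of them overlapped the other joints. The replicate arrays of the third joint at stage 2 differed by a median of 0.57 over the members, and by at most 4.59, in LOC4351514. That gene had 9.53 and 4.94 there, against 10.05, 11.48 and 12.71 as lowest, median and highest of the other joint arrays. Both of its arrays of the third joint at stage 2 were still below the others, but its low mean rests on 1 array. In 46 members both arrays of the third joint at stage 2 were under the median of all probe sets on that array.

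The score ran from 2.92, a 7.55-fold difference, to 6.13, a 70.2-fold difference, with a median of 3.54. At the lower edge, LOC4331984 had a score of 2.94, WRKY24 2.92 and LOC4324117 2.92. Just outside, 4CL5, which encodes a ligase of phenylpropanoid synthesis, had 2.91, LOC4340544 had 2.91 and LOC4338756 2.90. The list therefore ends without a gap. A score of at least 1, a 2-fold difference, was reached by 795 genes.

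The same score computed with each other joint group as the low one gave far fewer genes. With the second joint at stage 2 as the low group, 40 genes were at least 2-fold below the lowest of the rest, and with the other groups 1 to 18. No gene was at least 8-fold below the rest in any group other than the third joint at stage 2, where 90 were. The highest score in those 11 groups was 1.88, in the third joint at stage 6. The reverse pattern was less uneven. In the third joint at stage 2, 107 genes were at least 2-fold above the highest of the other groups, nearly as many were in the second joint at stage 2, and 1 to 37 in each remaining group.

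**Figure D2:**
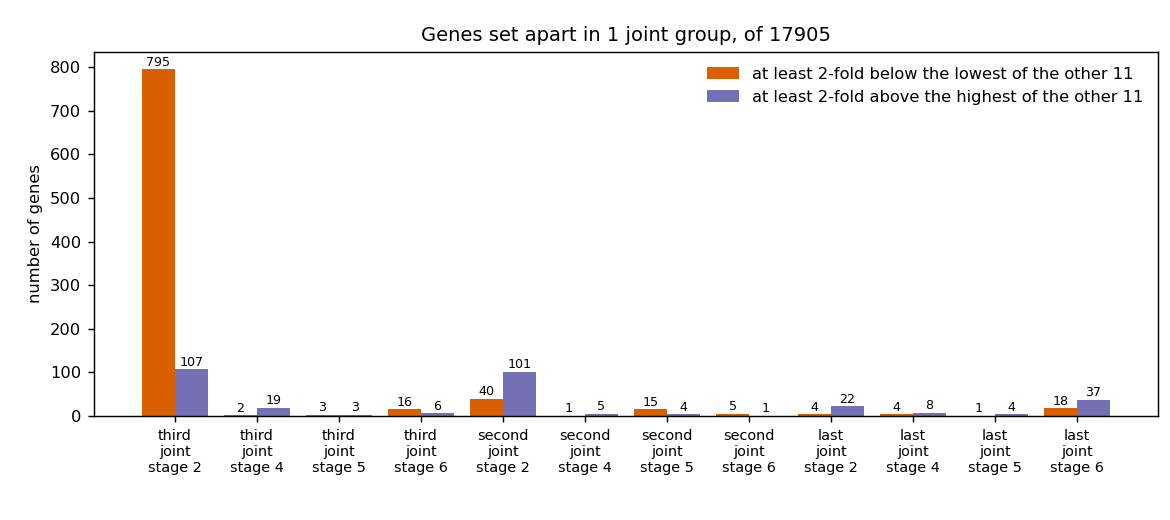
Number of genes, of 17905, that were at least 2-fold below the lowest (orange) or above the highest (violet) of the other 11 joint group means, for each joint group. The third joint at stage 2 has 795 genes below and 107 above, and no other group has over 40 below.

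Among the defence genes, PBZ1, a pathogenesis-related protein induced by the compound probenazole, had the highest score of the named members, 5.65. Its log2 level was 6.72 and 6.96 in the third joint at stage 2, against 12.21, 13.59 and 14.16 as the lowest, median and highest of the 22 other joint arrays. More than 5 log2 units separated both arrays of the third joint at stage 2 from every other joint array. The chitinase Cht11 had 4.07 and 3.44 in the third joint at stage 2, against 8.19, 12.30 and 13.10 on the other joint arrays. The chitinase Cht2, which the gene table also calls Cht8, had 3.34 and 3.33 in the third joint at stage 2, against 7.29, 11.12 and 12.39 on the other joint arrays. The chitinase Cht1 (LOC4342115) had 4.43 and 4.11 in the third joint at stage 2, against 7.24, 10.43 and 11.93 on the other joint arrays. All 3 chitinases were low on both arrays of the third joint at stage 2, and the group that came nearest was another young joint, the second joint for Cht11 and the last joint for Cht2 and Cht1. AGO18, an Argonaute protein known in rice for defence against viruses, had 4.16 and 4.66 in the third joint at stage 2, against 6.99, 10.76 and 11.77 on the other joint arrays, where the 3 values here and below are the lowest, the median and the highest of the 22.

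Of the 6 WRKY genes that carry a descriptive name, 4 were members, where 26 of all 2460 named genes were. WRKY genes with only a locus identifier are not counted, and the list was spelled out after the members had been seen. WRKY76 had 6.05 and 6.82 in the third joint at stage 2, against 10.54, 11.82 and 12.74 on the other joint arrays. WRKY62 had 3.89 and 4.46 in the third joint at stage 2, against 7.10, 9.15 and 10.18 on the other joint arrays. Both are known in rice as transcription factors that restrain disease resistance, and both were at least 2 log2 units below every other joint array. WRKY71 was uneven, with 11.21 and 7.63 in the third joint at stage 2, against 12.34, 13.07 and 13.81 on the other joint arrays, so that its low mean again rests largely on 1 array. WRKY24 had 6.28 and 5.84 in the third joint at stage 2, against 8.65, 10.12 and 11.75 on the other joint arrays. NAC6, a transcription factor of stress tolerance, had 8.20 and 5.94 in the third joint at stage 2, against 10.10, 10.80 and 11.50 on the other joint arrays. The heat stress transcription factor HSFA4D had 4.36 and 4.44 in the third joint at stage 2, against 7.42, 9.86 and 11.39 on the other joint arrays.

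Of the 34 genes in the jasmonate list, 3 were members, where 26 of all 2460 named genes were. All 3 were of the TIFY family of repressors. TIFY11C had 8.68 and 6.87 in the third joint at stage 2, against 12.51, 12.97 and 13.43 on the other joint arrays. TIFY11A had 10.05 and 6.997 in the third joint at stage 2, against 11.84, 12.99 and 14.03 on the other joint arrays. In both genes the replicate arrays of the third joint at stage 2 were over 1.5 log2 units apart and still below all others. TIFY9 had 4.97 and 4.18 in the third joint at stage 2, against 6.63, 9.20 and 10.06 on the other joint arrays, and the low end of the other joints was array 1 of the second joint at stage 5.

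HAK1 and AMT2-1 are the 2 members among the 79 genes of the nutrient transporter list, where 26 of all 2460 named genes are members. HAK1, a potassium transporter, had 6.58 and 6.28 in the third joint at stage 2, against 10.37, 11.59 and 12.36 on the other joint arrays. OsTPK3, outside that list and given no role here, had 5.74 and 5.04 in the third joint at stage 2, against 8.43, 9.79 and 10.42 on the other joint arrays. The ammonium transporter AMT2-1 had 5.11 and 4.36 in the third joint at stage 2, against 6.96, 9.67 and 10.49 on the other joint arrays. In HAK1 the group nearest to the third joint at stage 2 was the third joint at stage 4, in OsTPK3 the third joint at stage 6 and in AMT2-1 the second joint at stage 2. The ABC transporter ABCG44 had 4.02 and 4.09 in the third joint at stage 2, against 8.28, 10.004 and 10.92 on the other joint arrays. ABCG36, of the same subfamily and like it in no list, had 5.75 and 4.66 in the third joint at stage 2, against 8.32, 9.70 and 10.84 on the other joint arrays. NAAT1, no transporter but an aminotransferase of the synthesis of iron-chelating phytosiderophores, had 3.25 and 3.97 in the third joint at stage 2, against 7.17, 10.90 and 13.07 on the other joint arrays, the widest span over the other joints of these 6 genes.

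Hormone and wall genes were single members of larger lists. GH3.8, which conjugates auxin to amino acids, had 3.46 and 4.06 in the third joint at stage 2, against 6.76, 9.28 and 10.82 on the other joint arrays. CKX4, a cytokinin oxidase, had 4.13 and 3.99 in the third joint at stage 2, against 7.15, 9.44 and 10.45 on the other joint arrays. Both hormone genes were low on both arrays. BC1L9, of the COBRA-like family of wall proteins, had 9.22 and 7.48 in the third joint at stage 2, against 11.42, 13.41 and 13.90 on the other joint arrays. OsUGE-1, an epimerase of UDP-sugars, had 4.56 and 5.22 in the third joint at stage 2, against 6.71, 10.50 and 11.92 on the other joint arrays. LTP, a lipid-transfer protein, had 8.94 and 8.43 in the third joint at stage 2, against 11.76, 13.08 and 13.77 on the other joint arrays, and BC1L9 and LTP were thus still above the array median in the third joint at stage 2. CML31, a calmodulin-like protein, had 6.64 and 6.39 in the third joint at stage 2, against 8.93, 11.01 and 12.42 on the other joint arrays.

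**Figure D3:**
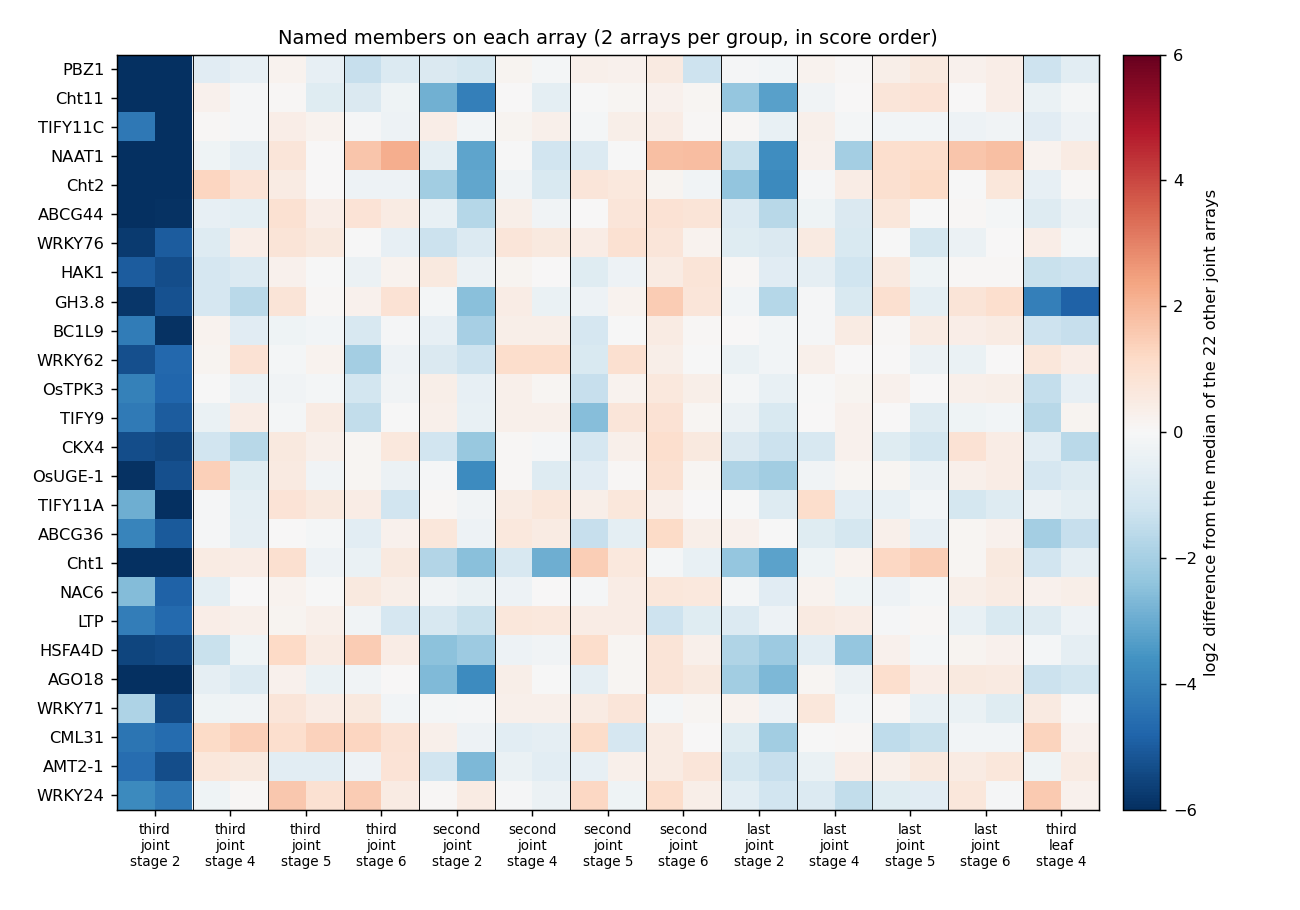
Log2 difference of the 26 named members from their own median over the 22 other joint arrays, on each of the 26 arrays, with rows in score order. Colour stops at 6 log2 units in either direction. The 2 columns of the third joint at stage 2 are blue in every row, the young second and last joints are pale blue for the chitinases, NAAT1, HSFA4D and AGO18, and GH3.8 is also blue in leaf.

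Among the 15 genes with the highest score, 9 have only a locus identifier, and no role is given to them here. LOC4339739 had the highest score, 6.13, with 4.98 and 3.798 in the third joint at stage 2, against 9.30, 11.63 and 12.73 on the other joint arrays. LOC4327292 had 5.23 and 5.09 in the third joint at stage 2, against 10.45, 13.09 and 13.88 on the other joint arrays. LOC4325751 had 4.04 and 3.44 in the third joint at stage 2, against 8.67, 10.91 and 12.48 on the other joint arrays. These 3 genes were near or under the array median in the third joint at stage 2 and well above it in all other joints. LOC4326760 had 4.37 and 3.88 in the third joint at stage 2, against 9.53, 11.87 and 12.66 on the other joint arrays. LOC4346996 had 6.28 and 5.45 in the third joint at stage 2, against 10.29, 11.94 and 13.04 on the other joint arrays. LOC4332204 had 4.44 and 3.84 in the third joint at stage 2, against 8.51, 10.20 and 11.21 on the other joint arrays. All of these were at least 4 log2 units below the lowest other joint array. LOC4338424 had 4.37 and 3.87 in the third joint at stage 2, against 8.61, 10.04 and 11.41 on the other joint arrays. LOC4350562 had 6.51 and 6.77 in the third joint at stage 2, against 10.60, 12.19 and 13.40 on the other joint arrays. LOC4344999 had 4.13 and 3.89 in the third joint at stage 2, against 6.29, 12.26 and 13.73 on the other joint arrays, with array 2 of the young second joint as the lowest of the others.

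Members differed in which group came second lowest. The second joint at stage 2 did so for 40 members and the last joint at stage 2 for 24, so that 64 scores were set by another young joint and 36 by a later stage. Over the other 11 joint groups the members' means spanned a median of 2.34 log2 units, from 0.58 to 5.83, against 1.17 for all genes. In 83 members the score was larger than this span. The group with the highest mean was the second joint at stage 6 for 27 members, the third joint at stage 5 for 14 and the last joint at stage 5 for 13.

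The members also varied more between replicates than genes in general. In the young second joint, array 1 was higher than array 2 for 93 of the 100 genes, by a median of 1.15, and 64 members were over 2-fold apart there. The members' median was 10.14 on array 1 of the young second joint and 8.58 on array 2. For all genes the median size of that difference was 0.28. In the young last joint, 81 members were higher on array 1, by a median of 0.58. In the third joint at stage 2, 63 members were higher on array 1, by a median of 0.30, and the members' array medians were 5.14 and 4.71, both under every other array.

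**Figure D4:**
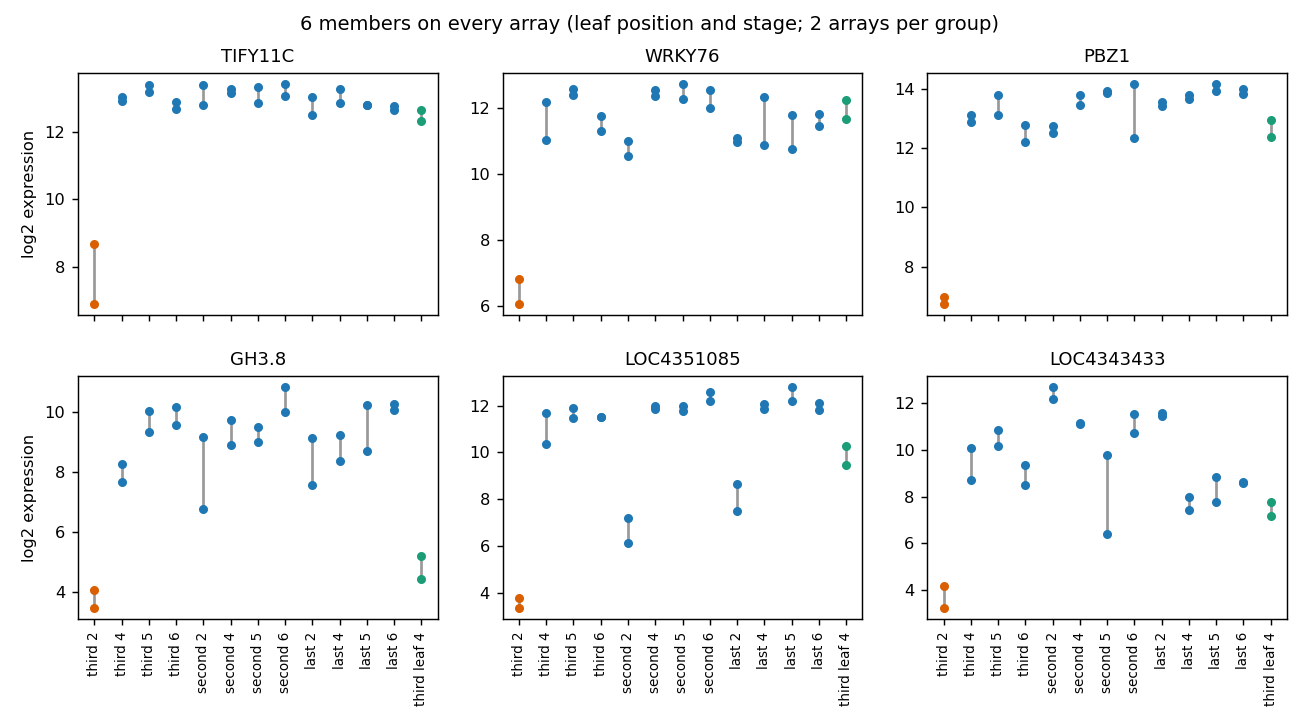
Log2 expression of 6 members, picked after their values were seen to show the range of patterns, on every array. Labels give leaf position and stage, the 2 points of a group are its arrays, joined by a line, and vertical axes differ. TIFY11C, WRKY76 and PBZ1 are high in all groups but the third joint at stage 2 (orange), GH3.8 is also low in leaf (green), LOC4351085 is also low in the young second and last joints, and LOC4343433 is highest in those young joints.

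Some members are neighbours in the RefSeq gene table of assembly ASM3414082v1, which was used here for order and names only. TIFY11A and TIFY11C lie next to each other on chromosome 3. The gene after them, JAZ10, also called TIFY11B, had a score of 0.91 and so was below the other joints by less than 2-fold, while the gene before them had -0.08. WRKY76 and WRKY62 lie next to each other on chromosome 9, and the genes on either side had scores of 0.22 and -0.10. LOC4336764 and LOC4336765 are neighbours on chromosome 4. On chromosome 12, LOC4352487, LOC4352488 and PBZ1 lie in this order with 1 and 2 other protein-coding genes between them. LOC4352490, between LOC4352488 and PBZ1, had a score of -0.97, so the low level was not shared by every measured gene of the stretch. In all, 9 members formed 5 such pairs with at most 4 genes between. Chromosome 1 held 19 members and 14.8% of all genes, chromosome 5 held 13 and 8.41%, chromosome 12 held 9 and 5.09%, and chromosome 6 held 2 and 7.81%. These positions are given as a description.

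Neighbouring genes of a family can share probes, and the array's suffixes bear on this. Of the 100 probe sets, 89 carry the plain suffix, 8 a suffix for probes shared with other transcripts and 3 one for alternative transcripts of a gene. Among the shared ones were those of ABCG44, HAK1 and LTP, whose values are therefore uncertain between near copies. For 21 members, 29 further probe sets are on the array. Of these, 25 were lower in the third joint at stage 2 than in the mean of the other joints and 20 had a score above 0, with 13 at 1 or more. The second probe set of BC1L9 had a score of 3.06 and that of HAK1 3.97. The second of AGO18 had -0.28 and both others of NAC6 were below 0, at -0.17 and -0.18. These 3 were dim, with means of 3.78 to 5.03. The second probe set of WRKY71 was bright, with a mean of 8.98, and had a score of 0.03, against 3.09 for the one used. Its difference from the mean of the other joints was -2.18 in the third joint at stage 2. A second one of Cht2 had a score of 3.18 and another, with a mean of 5.33, -0.06.

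The other genes of the members' families were compared in the third joint at stage 2 against the mean of the young second and last joints. This comparison was added after the data were seen, leaves out the members, and was called, as below, at a limma adjusted p under 0.05 over all probe sets and at least a 2-fold difference. It uses arrays that also chose the members, and the lists were spelled out after the members had been seen. Its counts and p-values, here and in the next paragraphs, are therefore descriptions and no independent result. Of all genes, 1.21% were called higher and 7.47% lower. Shares of all genes at an unadjusted p under 0.05 were not counted, so nothing is read from counts at that limit. Of the 11 lists that hold members, the 4 described first were picked after their counts were seen. Of 31 further jasmonate genes, 11 fell and 0 rose, with a median difference of -0.81, and at an unadjusted p under 0.05 there were 19 lower and 1 higher. The median of all genes was 0.02. The 11 included both synthesis and repressor genes. AOS (LOC4334233), the allene oxide synthase of jasmonate synthesis, averaged 10.11 in the third joint at stage 2 and 12.60 in the other young joints (difference -2.49, SE 0.24, adjusted p 3.557e-06). The oxophytodienoate reductase OPR-1 averaged 4.44 in the third joint at stage 2 and 7.41 in the other young joints (-2.97, SE 0.37, adjusted p 4.935e-05). The repressor JAZ8 averaged 9.62 in the third joint at stage 2 and 12.55 in the other young joints (-2.93, SE 0.37, adjusted p 5.7475e-05). JAZ10, the neighbour of TIFY11C, averaged 11.70 in the third joint at stage 2 and 13.48 in the other young joints (-1.79, SE 0.45, adjusted p 0.018455). Without array 2 of the third joint at stage 2, 7 of the 31 were called.

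Of 7 further NAC genes, 3 fell and 0 rose, with 3 lower and 0 higher at an unadjusted p under 0.05. NAC068 averaged 7.35 in the third joint at stage 2 and 12.07 in the other young joints (-4.72, SE 0.25, adjusted p 8.7836e-09). It ranked 269 by score. Of 7 further defence genes, 3 fell and 0 rose, with 6 lower and 0 higher at an unadjusted p under 0.05. Cht6 averaged 4.54 in the third joint at stage 2 and 7.72 in the other young joints (-3.18, SE 0.56, adjusted p 0.0012397), and Cht9 averaged 3.78 in the third joint at stage 2 and 5.86 in the other young joints (-2.07, SE 0.52, adjusted p 0.015963). Leaving out either array of the third joint at stage 2, or array 1 of the young last joint, left 1 of these 7, and leaving out array 2 of the young second joint gave 5. Of 77 further nutrient transporters, 13 fell and 0 rose, with 19 lower and 3 higher at an unadjusted p under 0.05. The potassium transporter HAK17 averaged 6.49 in the third joint at stage 2 and 10.42 in the other young joints (-3.94, SE 0.44, adjusted p 1.6855e-05). AMT1, an ammonium transporter, averaged 5.39 in the third joint at stage 2 and 8.67 in the other young joints (-3.28, SE 0.29, adjusted p 1.1819e-06). The genes named in these families were chosen after their values were seen.

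The other 7 lists that hold members follow. Of 57 further auxin genes 5 fell and 1 rose, of 42 heat shock genes 5 fell, of 46 cellulose and wall genes 4 fell, of 25 cytokinin genes 4 fell and 1 rose, and of 10 metallothionein and nicotianamine genes 1 fell. None of the 2 further WRKY genes was called by limma, with 1 lower and 0 higher at an unadjusted p under 0.05, and none of the 7 further lipid-transfer and wax genes, with 1 lower and 1 higher.

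Lists that hold no member were compared in the same way, and 4 of them are given here, picked after their counts were seen. Among those left out, the bHLH list had 4 of 12 genes lower and the MYB list 3 of 9, with 0 higher in either. The aquaporin and terpenoid lists had 0 called. Of 63 genes of abscisic acid and dehydration, hormone and stress genes of water loss, 16 fell and 0 rose, with a median difference of -0.67 and, at an unadjusted p under 0.05, 27 lower and 3 higher. Of 62 protein kinases, 8 fell and 1 rose, with a median of -0.19. Of 26 DNA replication genes, 4 rose and 0 fell, with a median of 0.56 and 15 higher and 0 lower at an unadjusted p under 0.05. Of 67 cell cycle genes, 3 rose and 2 fell, with a median of 0.27. Single arrays decide some of these counts. Without array 1 of the third joint at stage 2, 11 replication and 16 cell cycle genes were called higher, and without array 2 there were 0 and 1, with 10 lower in the abscisic acid list. The replication count was 8 without array 1 of the young last joint or array 2 of the young second joint, and 1 without array 2 of the young last joint or array 1 of the young second joint. The cell cycle count was 9 without array 1 of the young last joint and 1 without array 1 of the young second joint. With only the arrays of the compared groups entered, 0 replication and 0 cell cycle genes were called higher and 7 genes of the abscisic acid list lower. With limma's treat, which tests against the 2-fold limit, there were 0 and 1 higher and 4 lower, and 7 nutrient transporters, 5 kinases, 3 jasmonate and 0 defence genes lower. Without dim probe sets no replication gene was called.

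Leaf was not used to choose the members. All 100 had a higher mean in leaf than in the third joint at stage 2, by a median of 4.28 and by 0.95 to 8.84, against a median of 0.10 for all genes. In 99 members both leaf arrays were above both arrays of the third joint at stage 2, which held for 40.5% of all genes. Since the third joint at stage 2 was chosen as low, these are descriptions. For 67 members the leaf mean lay within the range of the other 11 joint group means, for 31 below it and for 2 above it.

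The third joint was then tested against the leaf beside it at stage 4, where neither group is the third joint at stage 2. The score still bears on this comparison, since it asks for a high level in the third joint at stage 4, as in the other joint groups, and asks nothing of leaf. The counts below are therefore partly set by the choice of members. Of the members, 16 were higher in the joint, where 7.6% of all genes were, and 0 were lower, where 6.54% were. At an unadjusted p under 0.05 there were 37 higher and 4 lower. For this limit the share of all genes was not counted, here and in the comparisons below. Nothing is therefore read from such counts. The median difference was 0.71, against 0.02 for all genes. LOC4324254 had 13.14 and 10.01 in the third joint, against 6.83 and 7.07 in leaf (difference 4.62, SE 1.11, adjusted p 0.011518). LOC4330829 had 11.16 and 10.89 in the third joint, against 6.05 and 7.94 in leaf (4.03, SE 0.70, adjusted p 0.0010446). GH3.8 had 8.26 and 7.66 in the third joint, against 5.18 and 4.42 in leaf (3.16, SE 0.68, adjusted p 0.005469). In all 3 genes both joint arrays were above both leaf arrays. GH3.8 averaged 4.80 in leaf, against 3.76 in the third joint at stage 2. ABCG36 was also higher in the joint, with 9.63 and 9.14, against 7.66 and 8.30 in leaf (adjusted p 0.049083). The count depends on single arrays: it was 3 without array 1 of the third joint, 7 without array 1 of leaf and 6 without array 2 of leaf. LOC4324254 was not called without any one of these 3 arrays, and GH3.8 not without array 1 of the joint or array 2 of leaf. Array 2 of the third joint at stage 4 had a Gapdh 3′ minus 5′ difference of 3.78. Its array 1 had 1.95, and the leaf arrays 1.78 and 1.82.

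From stage 2 to stage 4 the members were also followed in the upper joints, the last and the second, whose groups entered the score only as candidates for the lowest of 11. The score still asks for a high level in each of these groups, and 99 members were above the array median on all 22 other joint arrays. The counts below, also those for the later comparisons between joint groups, are therefore partly set by the choice of members. The shares of all genes carry no such condition. In all, 36 members rose, where 9.23% of all genes did, and 2 fell, where 11.5% did. The median difference was 0.93, against 0.06 for all genes. At an unadjusted p under 0.05 there were 53 higher and 4 lower, again without a share of all genes. In both joints separately the stage 4 mean was above the stage 2 mean for 75 members and below it for 10. The median difference was 0.68 in the last joint and 1.16 in the second joint. In the third joint it was 4.85, from 3.27 to 9.65, which the choice of members fixes. In 43 members both upper young joints lay below every later joint group. Shares of all genes for the counts of 75, 10 and 43 were not computed, so nothing is read from them.

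The largest rise was that of LOC4351085, with 12.06 and 11.87 at stage 4 in the last joint, against 8.66 and 7.51 at stage 2, and 11.96 and 11.86 at stage 4 in the second joint, against 7.20 and 6.13 at stage 2 (difference 4.57, SE 0.31, adjusted p 1.2198e-08). LOC4323896 had a difference of 3.47 (SE 0.54, adjusted p 0.00012146), with stage 4 arrays from 10.01 to 10.95, against stage 2 arrays from 5.56 to 8.43. LOC4344999 had a difference of 3.42 (SE 0.72, adjusted p 0.0018172), and array 1 of the young second joint, at 10.93, lay just under its lowest stage 4 array, 10.94 in the last joint. The first pair of genes showed no overlap between the stages, and in LOC4344999 the stages all but touched. Among the named members, 11 rose. Cht11 averaged 12.11 at stage 4, against 9.15 at stage 2 (2.96, SE 0.27, adjusted p 4.6976e-07). AGO18 rose by 2.82 (SE 0.25, adjusted p 2.7625e-07) and Cht2 by 2.66 (SE 0.30, adjusted p 3.8717e-06). OsUGE-1, Cht1, LTP, AMT2-1, HSFA4D, WRKY62, CKX4 and WRKY76 rose by 1.14 to 1.75, and no TIFY member was called.

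The genes that fell were LOC4343433 and LOC4341678. LOC4343433 had 7.99 and 7.43 at stage 4 in the last joint, against 11.61 and 11.45 at stage 2, and 11.11 and 11.15 at stage 4 in the second joint, against 12.70 and 12.18 at stage 2 (difference -2.56, SE 0.53, adjusted p 0.0016236). LOC4341678 had 11.70 and 9.98 in the last joint at stage 4, against 13.35 and 12.24 at stage 2, and 12.09 and 12.00 in the second joint at stage 4, against 13.55 and 13.48 at stage 2 (-1.71, SE 0.46, adjusted p 0.011965). Stage 4 lay below stage 2 without overlap in each of these joints for both genes. Without array 2 of the young second joint, 22 members were called higher and 4 lower. Without array 1 of the young last joint 1 was called lower, and LOC4341678 was not called then or without array 2 of the last joint at stage 4.

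The last joint and the second joint at stage 2 differed in 0 members in either direction by limma, where 0.413% of all genes were higher and 0.693% lower in the last joint. At an unadjusted p under 0.05 there were 8 higher and 3 lower. The median difference was 0.03, and 53 members were higher and 47 lower in the last joint, whose plants were 5 days older. The replicate difference of the young second joint bears on this comparison: without its array 2 the median was -0.61, and without its array 1 it was 0.59, with 1 member called lower in the first case and 1 higher in the second.

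At stages 4 to 6 the third joint was tested against the mean of the last and second joints. CML31 was the 1 member called higher, where 0.374% of all genes were, and 0 were called lower, where 0.117% were. At an unadjusted p under 0.05 there were 6 higher and 12 lower, and the median difference was -0.09, against 0.03 for all genes. CML31 had 11.87 to 12.42 on the 6 arrays of the third joint at stages 4 to 6, against 9.50 to 12.09 on the 12 arrays of the upper joints (difference 1.49, SE 0.26, adjusted p 0.01132). The ranges overlapped through array 1 of the second joint at stage 5, at 12.09. Without array 2 of the third joint at stage 4 or array 2 at stage 5 it was not called. The count of lower members was 2 without array 1 of the second joint at stage 5, and 1 without array 2 of the second or of the third joint at stage 6.

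Over the later steps few members moved. From stage 4 to stage 5, averaged over the 3 joints, 6 rose, where 0.676% of all genes did, and 0 fell, where 0.693% did. There were 16 higher and 5 lower at an unadjusted p under 0.05, and the median was 0.08, against -0.03 for all genes. The 6 were LOC4352488, LOC4352487, Cht1, HSFA4D, LOC4336764 and LOC4352116. LOC4352488 had 9.73 to 11.79 on the 6 stage 5 arrays, against 7.42 to 9.58 at stage 4 (2.00, SE 0.37, adjusted p 0.010869). Its neighbour LOC4352487 had 10.38 to 12.21 at stage 5, against 8.98 to 10.37 at stage 4 (1.63, SE 0.34, adjusted p 0.023921). Neither gene overlapped between the stages, though the second only just. Cht1 had 10.12 to 11.93 at stage 5, against 7.49 to 10.91 at stage 4 (1.42, SE 0.32, adjusted p 0.034705), with overlap in the third joint. The count of 6 was 0 without array 2 of the second joint at stage 4 or array 1 of the third joint at stage 5. It was 1 to 3 without either last joint array at stage 5, array 2 of the last joint at stage 4, array 1 of the second joint at stage 4 or stage 5, or either array of the third joint at stage 4. LOC4352488 lost its call in the same 2 cases that gave 0. LOC4352487 and Cht1 lost theirs in these cases too, and without array 2 of the last joint at stage 4 or 5, array 1 of the second joint at stage 5 or either array of the third joint at stage 4, and Cht1 also without array 1 of the last joint at stage 4 or 5.

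From stage 5 to stage 6, 1 member rose, where 1.68% of all genes did, and 0 fell, where 1.69% did. There were 17 higher and 8 lower at an unadjusted p under 0.05, and the median was 0.10, against 0.03 for all genes. LOC4349648 had 9.02 to 10.08 on the 6 stage 6 arrays, against 7.15 to 8.68 at stage 5 (1.58, SE 0.35, adjusted p 0.013793), with no overlap. The Gapdh 3′ minus 5′ difference was 3.002 to 3.41 on the stage 6 arrays, against 1.81 to 2.02 on the stage 5 arrays of the second and the third joint and 2.93 and 3.33 on those of the last. With this difference as a covariate, the fold was as large, at 1.72 on the log2 scale, and the gene was not called (limma adjusted p 0.1409, where its alternatives ranged from 0.002049 to 1). It was also not called without array 1 of the third joint at stage 5. Without array 2 of the second joint at stage 5 there were 12 members called higher, and without either array of the young second joint 4. There were 2 or 3 without either last joint array at stage 2 or stage 4, either array of the third joint at stage 4 or array 1 of the third joint at stage 6.

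**Figure D5:**
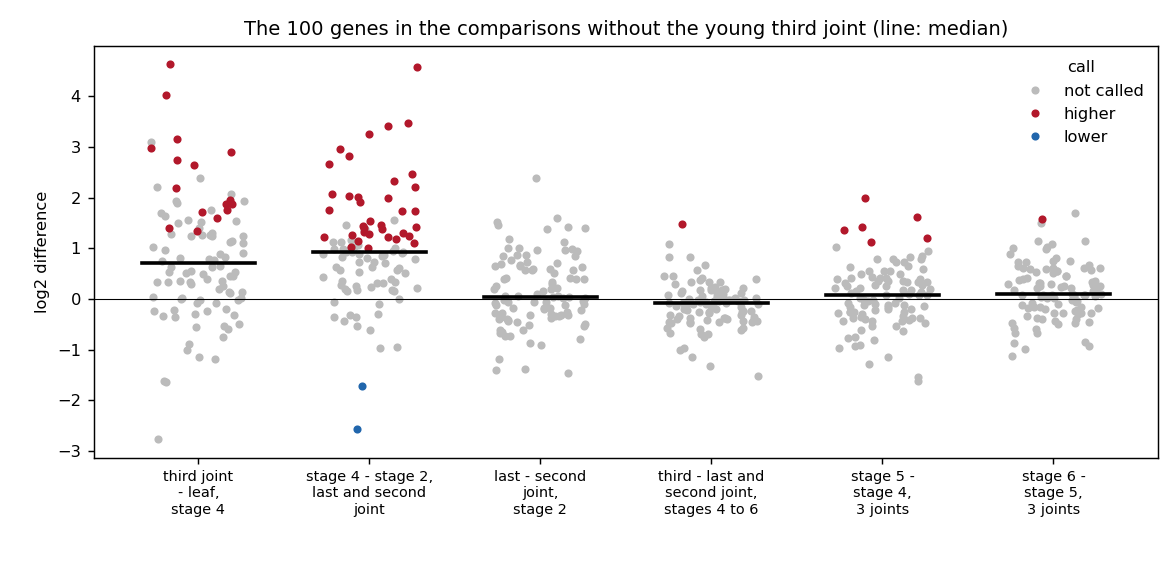
Log2 difference of each of the 100 genes in the 6 comparisons that do not use the third joint at stage 2. Points are genes, coloured where called higher (red) or lower (blue), and lines are medians. The third joint against leaf has 16 red points, stage 4 against stage 2 in the upper joints 36 red and 2 blue, and the other 4 comparisons have 0, 1, 6 and 1 red.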

How the data were processed

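Per the labels' protocols, total RNA of 26 rice samples was labelled for 1-colour Affymetrix arrays. The authors deposited 1 log2 value per probe set and array, made with RMA per the submitters' processing notes. Its version, background setting and probe set definitions are not given in these sources. No further scaling was applied. Of 57381 probe sets, 123 controls were left out and 57258 tested. By the platform annotation and the RefSeq table, 22436 of these match 1 gene, 95 several and 34727 none. The matched ones represent 17905 genes, 2460 of them with a descriptive name, many taken from the table's synonyms. No values were missing, and arrays of 1 group shared 0.0238% of their values, so each array counts once.

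All 26 arrays entered 1 limma 3.58.1 fit (R 4.3.3) with a mean per group, no block and 13 residual degrees of freedom, moderated by eBayes. Tests are two-sided. A call needs a difference of at least 2-fold and an adjusted p (Benjamini-Hochberg, over the 57258 probe sets) under 0.05, and every adjusted p in the text is limma's. The fit was tested on simulated data with known changes. Alternatives were the arrays entered, the replicate number as a block, a Gapdh covariate, quantile normalization, the fold limit, treat, the probe sets entered, trended robust variances and other forms of the score.

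The members, the comparisons and 35 lists of named genes were chosen with earlier results of these data known, and the lists' symbol patterns were spelled out after the members and their values had been seen. Members named with values are the 15 with the highest score, all with a descriptive name or in a list, the 3 called with the largest difference each way in each tested comparison, and those at the edge of the list. A few others were named after their values were seen.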

Additional observations from a re-analysis of the deposited data

Results flagged for a closer look

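In 3 members both arrays of stage 4 lay below both arrays of stage 2 in the last joint and in the second joint, while in the third joint stage 4 lay above stage 2 without overlap. The direction in the third joint is fixed by the choice of members, and the difference between the joints was not tested. How many of all genes show this pattern was not counted, so nothing is read from the count of 3. Of all genes, 11.5% were called lower at stage 4 than at stage 2 in the upper joints. LOC4343433 had a stage 4 minus stage 2 difference of -3.82 in the last joint, LOC4341678 of -1.95 and LOC4332305 of -0.82. LOC4332305 was picked out after its values were seen. It had 10.76 and 11.03 at stage 4 in the last joint, against 12.05 and 11.37 at stage 2, and 10.62 and 10.53 at stage 4 in the second joint, against 12.61 and 10.69 at stage 2.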

How the results depend on the processing

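Of the 100 members, 77 to 100 kept their place when 1 array was left out, with 77 without array 1 of the third joint at stage 2 and 80 without array 2. With the median of the other 11 groups in place of the lowest, 40 kept it. The genes with a score of at least 1, 795 in the report, numbered 636 to 1024 with 1 array left out, 1246 with the second lowest group, 3015 with the median of the groups and 297 with the lowest of 22 arrays minus the higher array of the third joint at stage 2.

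For the third joint against leaf, the 0 members called lower became 1 with only the compared arrays, without array 2 of the third joint at stage 4 and array 1 of the second joint at stage 5 together, with quantile normalization or with trended robust variances, and 2 with the replicate block, 1 probe set per gene or dim probe sets left out. With treat, which tests against the 2-fold limit, 1 was higher. From stage 2 to stage 4 in the upper joints treat called 7 higher and 0 lower. For the third against the upper joints at stages 4 to 6, and for stage 5 against 4 and 6 against 5, it called 0 higher. Stage 5 against 4 had 1 higher without the same pair of arrays. Stage 6 against 5 had 0 higher with the Gapdh covariate, 2 with only the compared arrays or no fold limit, and 3 with 1 probe set per gene or without dim ones, and 1 lower with quantile normalization and 2 with no fold limit.

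With 1 array left out, the ranges of members called higher and lower were 3 to 22 and 0 to 2 for joint against leaf, 22 to 52 and 1 to 4 for stage 4 against 2, 0 to 1 and 0 to 1 for the last against the second joint, 0 to 1 and 0 to 2 for the third against the upper joints, 0 to 7 and 0 to 3 for stage 5 against 4, and 0 to 12 and 0 to 2 for stage 6 against 5. The 3 lower in stage 5 against 4 came without array 2 of the second joint at stage 5. Single genes were followed only for the largest called differences of each comparison, up to 3 each way. None of these changed direction in any of these settings. With only the compared arrays 1 of the further defence genes was called lower. The causes of these changes were not tested.

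Replicate 1 deviations of 2 groups correlated over probe sets at r from -0.306 to 0.553, with a median of 0.0397 and 24 of 78 pairs over 0.1. The replicate numbers were not taken to pair the samples in the main fit. Whether some groups share a replicate effect was not tested. Apart from the 2 lower calls above, the replicate block moved no count by over 1.5 times.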
